A study of Mus musculus with 41 samples.

Results

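The regions described here were the Jun binding sites of newborn mouse osteoblasts that had no counterpart in any other binding map of the study. They were chosen by the positions of the peaks themselves: a Jun peak was taken when it overlapped, by 1 bp or more, no peak of the 7 other deposited lists. This left 6071 of the 14937 Jun peaks (40.6%, 95% interval 39.9 to 41.4%), out of 155773 peaks in all 8 lists. Because overlap chose these sites, their lack of overlap is a description and not a finding, and they are called Jun-only sites below.

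Jun is a basic leucine zipper protein and a subunit of AP-1, a dimer that Jun family proteins form with each other or with Fos and ATF family proteins. AP-1 binds short palindromic elements, most often at enhancers away from promoters, and it often sits beside factors that are specific to a cell type. In bone, AP-1 proteins regulate osteoblast genes, and Runx2, the transcription factor that osteoblast formation requires, is known to act with AP-1 at some of them.

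Jun was precipitated from wild-type C57BL/6 calvarial osteoblasts at postnatal day 1, as 1 library. The cells were released by collagenase and dispase from the frontal bone and the front of the parietal bone, with no sort named, so other cells of the calvaria may be present. No expression or accessibility values were used, and the cell type could not be checked against markers. The lists the Jun sites were set against came from 4 experiments, all by chromatin immunoprecipitation and sequencing. In the first, Runx2 carried a knock-in FLAG tag (Runx2-BioFL/+, C57BL/6, postnatal day 1) and was precipitated from calvarial osteoblasts, with 2 libraries behind 1 list. In the second, the same tagged allele was used in rib chondrocytes, again with 2 libraries behind 1 list. Foxa2, a forkhead factor, was precipitated from wild-type C57BL/6 rib chondrocytes of the same age, as 1 library. The last used 3T3 cells, a mouse fibroblast line, made to overexpress Runx2BioFL or GFP. The FLAG antibody was applied at day 0 and after culture to day 3 in osteogenic medium (ascorbic acid phosphate, β-glycerophosphate and 100 ng/ml BMP-2), as 1 library each. The GFP cells carry no tagged Runx2 by their label and serve as background. Among the 3T3 lists, the one named for GFP day 3 carries the label of the Runx2 sample of day 0 and the reverse, and both are used under their names. Exchanging them changed no Jun-only site, since any of the 7 lists removed a peak. The classes of other Jun peaks that are defined by GFP or 3T3 Runx2 lists do depend on these names.

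Each list held peak positions and nothing else: no height, score or p-value. Read depth is not known. With 1 list per group no value has a replicate error, so no p-value is given. Intervals are 95% Wilson intervals for shares and Newcombe intervals for differences; both reflect counting error alone and treat neighbouring peaks as independent, which they are not. As a second description, the number of chromosomes with the same direction is given, over chromosomes 1 to 19 and X. Jun was mapped only in osteoblasts and Foxa2 only in chondrocytes, so factor and cell type cannot be told apart where Jun sites are set beside Foxa2 sites. All osteoblasts came from calvaria and all chondrocytes from rib, so cell type and skeletal site cannot be told apart either.

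The remaining 8866 Jun peaks met the other lists in different measure. The lists of 3T3 Runx2 overlapped the most, with 5677 Jun peaks (38.0% of all Jun peaks) in the day 3 list and 5082 (34.0%) in the list named for day 0. The list named for GFP day 3 overlapped 3542 Jun peaks (23.7%), and for 930 of these it was the only list. Runx2 of the primary cells overlapped fewer, 2633 (17.6%) in osteoblasts and 2785 (18.6%) in chondrocytes. GFP day 0 overlapped 738 (4.94%) and Foxa2 274 (1.83%). The 3T3 lists together removed more Jun peaks than the primary lists, and both 3T3 Runx2 lists are larger than any other: without the 4 lists of 3T3 cells 72.2% of Jun peaks would have been alone, and without the 3 lists of primary cells 46.9%.

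The Jun-only share stood between those of the other primary lists. The share of peaks in no other list was 40.6% for Jun, against 72.8% for Foxa2, 21.7% for osteoblast Runx2 and 21.3% for chondrocyte Runx2. Among the 3T3 lists it was 11.0% and 38.4% for Runx2 at day 0 and day 3, and 13.1% and 39.5% for GFP at day 0 and day 3. By name Runx2 has 4 lists in the set, whereas Jun and Foxa2 have 1 each, and the part of this in the shares was not tested.

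The Jun-only sites were spread through the Jun file in a way that no other list showed. The order of peaks in the files is not explained in the sources used here, but in the other 7 lists it followed how often a peak recurred: peaks late in the file were found alone far more often. For osteoblast Runx2 the share in no other list was 2.15% in the first of 10 equal parts of the file and 38.0% in the last. For chondrocyte Runx2 it was 3.77% and 42.1%, for Foxa2 38.4% and 87.6%, and for 3T3 Runx2 day 3 it was 1.28% and 76.7%. The list named for GFP day 3 had 16.5% and 71.8%, and the smallest change was that of GFP day 0, with 6.05% and 24.3%. For Jun the share was 33.9% (31.5 to 36.3%) in the first part and 41.9% (39.4 to 44.4%) in the last, and parts 2 to 10 lay between 38.4% and 43.8% with no direction. The rise from the first to the last part was 7.99 percentage points (4.52 to 11.4).

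**Figure D1:**
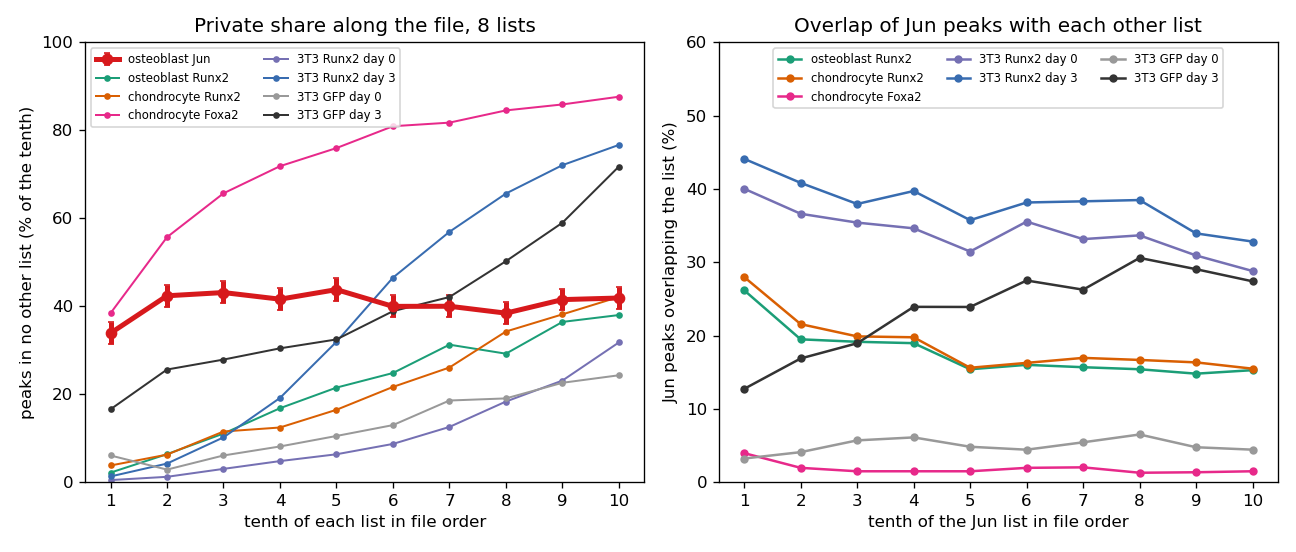
Left, the percentage of peaks found in no other list, for each of 10 equal parts of each of the 8 lists in file order; bars on the Jun line are 95% Wilson intervals. The Jun line stays between 33.9% and 43.8%, whereas the osteoblast Runx2 line starts at 2.15% and ends at 38.0%. Right, the percentage of Jun peaks that overlap each other list, by part of the Jun file; the line named for GFP day 3 lies at 12.7% in the first part and 27.4% in the last, and both primary-cell Runx2 lines are lower in the last part than in the first.

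Behind this level line were overlaps that moved in opposite directions along the Jun file. Jun peaks overlapped osteoblast Runx2 in 26.2% of the first part (24.0 to 28.5%) and 15.3% of the last (13.5 to 17.2%). The overlap with chondrocyte Runx2 was 28.0% and 15.5%, and that with Foxa2 was 3.95% and 1.47%. Both 3T3 Runx2 lists also overlapped early Jun peaks more, with 44.1% and 32.8% for day 3, and 40.03% and 28.8% for the list named for day 0. The list named for GFP day 3 went the other way, with 12.7% of the first part (11.1 to 14.5%) and 27.4% of the last (25.2 to 29.7%), and its highest value, 30.6%, in part 8. GFP day 0 overlapped few Jun peaks, with 3.21% of the first part, 4.42% of the last and its highest value, 6.49%, also in part 8.

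The higher overlap late in the file with the list named for GFP day 3 was found in the Jun list alone. In each of the 6 other lists the share overlapping the list named for GFP day 3 was lower in the last part than in the first: 2.83% against 61.9% for osteoblast Runx2, 3.44% against 19.4% for chondrocyte Runx2 and 0.259% against 45.9% for 3T3 Runx2 day 3. It was 0.58% against 47.9% for 3T3 Runx2 day 0, 0.272% against 2.71% for Foxa2 and 16.6% against 85.5% for GFP day 0. When neither GFP list was used, the share of Jun peaks without overlap was 36.3% in the first part and 52.8% in the last, a rise of 16.5 percentage points. The list named for GFP day 3 is also one of the 2 lists with crossed labels, so whether it holds GFP or Runx2 cells cannot be told from the labels.

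Jun-only sites were fewer among the first peaks of the Jun file. They made up 506 of the peaks of the first part, which is 8.33% of the Jun-only sites, against 988 or 11.1% of the other Jun peaks (10% of all Jun peaks). The difference was -2.81 percentage points (-3.76 to -1.85), and the share was lower for Jun-only sites on 18 of 20 chromosomes. In the first 50% of the file stood 50.4% of the Jun-only sites and 49.7% of the other Jun peaks, a difference of 0.63 points whose interval, -1.0 to 2.26, spans 0. That difference was -4.86 points when neither GFP list was used and 2.29 points when peaks up to 500 bp apart counted as overlapping. The first peak of the whole file was itself a Jun-only site, 115 bp on chromosome 9 from 107537796 to 107537910 (mm9), 74 bp from an osteoblast Runx2 peak and 213 bp from a peak of the list named for GFP day 3. The next 4 Jun-only sites stood at positions 11, 14, 18 and 31 of the file. Among them, a site of 118 bp on chromosome 4 from 9214510 to 9214627 lay 17578 bp from the nearest peak of another list and 342018 bp from the nearest osteoblast Runx2 peak.

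Jun-only sites were narrower than the other Jun peaks. Their median width was 125 bp (quartiles 94 and 169 bp, range 4 to 496 bp), against 141 bp for the other Jun peaks (quartiles 101 and 216 bp, range 4 to 498 bp), and the median was lower on 20 of 20 chromosomes. Wide peaks were also fewer. Peaks over 300 bp made up 242 of the Jun-only sites (3.99%) and 1105 of the other Jun peaks (12.5%), against 9.02% of all Jun peaks, a difference of -8.48 percentage points (-9.32 to -7.63) with the same direction on 20 of 20 chromosomes. Peaks under 50 bp were 5.39% of the Jun-only sites and 4.83% of the other Jun peaks. A wide peak meets another list more easily, so width is tied to the choice of these sites.

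Width followed the number and the kind of lists met. The median was 125 bp with no other list, 134 bp with 1 list, 138 bp with 2, 150 bp with 3, 146 bp with 4 and 167 bp with 5. By kind, it was 164 bp for the 1083 Jun peaks that met a GFP list and no Runx2 list, 139 bp for the 3661 with Runx2 of 3T3 cells but not of primary cells, and 139 bp for the 4044 with Runx2 of a primary cell type. The 78 Jun peaks that met Foxa2 alone had a median of 126.5 bp, close to that of the Jun-only sites. The gap also depended on file position. In the first part of the file the median was 113 bp for both Jun-only sites and other Jun peaks, whereas in parts 2 to 10 Jun-only sites were narrower by 11.5 to 24 bp; in the last part the medians were 140 bp and 163.5 bp.

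**Figure D2:**
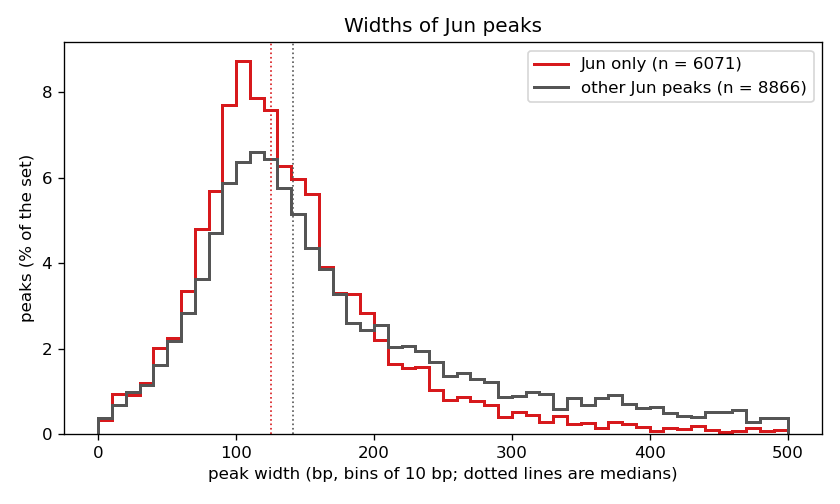
Percentage of peaks in each 10-bp class of width, for the 6071 Jun-only sites and the 8866 other Jun peaks, with medians as dotted lines. The Jun-only median of 125 bp lies left of 141 bp, and the right tail beyond 300 bp holds 3.99% of the Jun-only sites and 12.5% of the other Jun peaks.

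The widest Jun-only site was 496 bp, on chromosome 4 from 137548900 to 137549395, at position 12043 of the file. It lay 347 bp from a peak of the list named for GFP day 3, 882 bp from 3T3 Runx2 day 3 and 930 bp from osteoblast Runx2. Of the other named wide sites, that on chromosome 16 from 57438209 to 57438702 lay 2444 bp from an osteoblast Runx2 peak and 59226 bp from a chondrocyte Runx2 peak. That on chromosome 17 from 84509563 to 84510056 lay 3 bp from a 3T3 Runx2 day 3 peak and 16 bp from a chondrocyte Runx2 peak. These wide sites thus ranged from near misses of the overlap rule to sites kilobases from any Runx2 peak.

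Many Jun-only sites lay close to a peak of another list without touching it. The median distance to the nearest such peak was 3064 bp, with quartiles of 274 and 14173 bp. Within 500 bp lay 1879 sites (31.0%, 29.8 to 32.1%), within 1 kb 2265 (37.3%) and within 10 kb 4162 (68.6%). At the other end, 547 sites lay more than 50 kb away, 224 more than 100 kb and 6 more than 1 Mb. Counting peaks up to 500 bp apart as overlapping would leave 28.1% of the Jun peaks alone, in place of 40.6%.

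**Figure D3:**
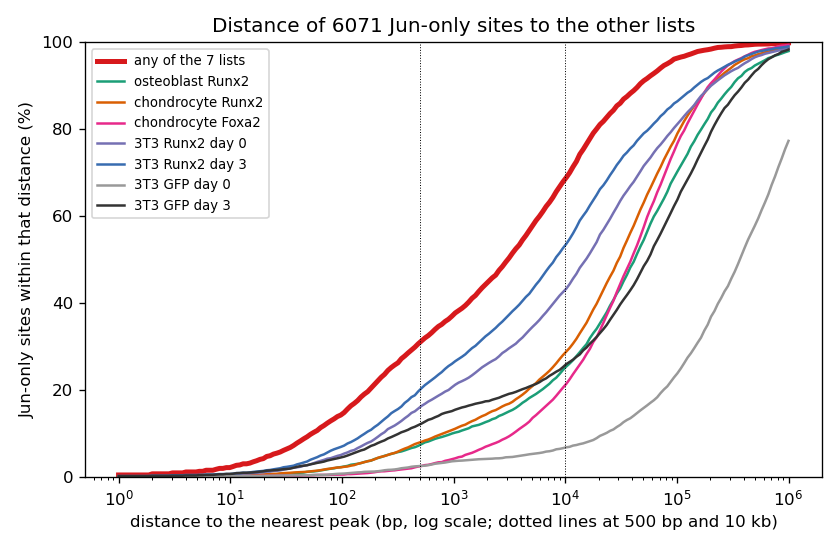
Cumulative percentage of the 6071 Jun-only sites (vertical axis) within a given distance of the nearest peak (horizontal axis, bp, log scale) of any of the 7 other lists and of each list. The line for any list reaches 31.0% at 500 bp and 68.6% at 10 kb, and among single lists that of 3T3 Runx2 day 3 is highest, with 53.3% at 10 kb.

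At the edge of the rule, 8 Jun-only sites abutted a peak of another list and 140 lay within 10 bp. One of these was the site on chromosome 10 from 79389848 to 79389986, which abutted a peak of the list named for GFP day 3 and lay 24 bp from 3T3 Runx2 day 0, 50 bp from 3T3 Runx2 day 3 and 66 bp from osteoblast Runx2. Another, on chromosome 2 from 27527770 to 27527951, abutted a 3T3 Runx2 day 3 peak and had its nearest osteoblast Runx2 peak 3830 bp away. Just outside, 19 Jun peaks overlapped another list by a single base and 196 by 10 bp or less. One of them stood on chromosome 11 from 77307237 to 77307369 and shared 1 bp with the list named for GFP day 3. Most overlaps were deeper: 7695 of the 8866 other Jun peaks (86.8%) shared at least 50% of the shorter peak, and the median of the longest overlap was 109 bp.

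Some of the Jun-only sites were pieces of a region whose other Jun peaks were shared. Within 500 bp of a Jun peak that was not Jun-only lay 475 sites (7.82%). When Jun peaks up to 500 bp apart were joined, 13142 regions resulted, of which 5386 (41.0%) held Jun-only sites alone, 461 held both kinds and 7295 held none. Sites more than 500 bp from every other list and from every Jun peak that met one numbered 4187, or 69.0% of the Jun-only sites.

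The largest list, 3T3 Runx2 day 3, was also the one most often nearest, to 2021 sites (33.3%), followed by Foxa2 with 1056 (17.4%), 3T3 Runx2 day 0 with 966 (15.9%) and GFP day 3 with 751 (12.4%). Osteoblast Runx2 was nearest to 606 sites (9.98%) and chondrocyte Runx2 to 592 (9.75%). Osteoblast Runx2 lay within 10 kb of 25.1% of the Jun-only sites, chondrocyte Runx2 of 28.5% and Foxa2 of 21.0%. Per 1000 peaks of the list, these were 149 sites for osteoblast Runx2, 112 for chondrocyte Runx2 and 86.3 for Foxa2. By this measure the osteoblast list, the smallest of the 3 primary lists, came first among them. The order depended on the measure. Counting sites to which a list was nearest, per 1000 of its peaks, Foxa2 came first with 71.7. Osteoblast Runx2 then had 59.2 and chondrocyte Runx2 38.5. GFP day 0, the smallest list, reached 164 sites per 1000 peaks, above osteoblast Runx2.

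In the surroundings beyond the site itself, Runx2 peaks of osteoblasts were the more frequent of the lineage-specific ones, relative to their number. Runx2 peaks found in 1 primary cell type and not overlapping the other numbered 5616 in osteoblasts and 10782 in chondrocytes, so 34.2% of these lineage-only peaks were osteoblast ones. Of the lineage-only peaks counted 1 to 50 kb from Jun-only sites, 41.8% were osteoblast ones, with 29.4% to 49.2% on single chromosomes. Around the 10734 Foxa2 peaks in no other list the share was 29.9%, and it was higher around Jun-only sites on 20 of 20 chromosomes. The difference was 11.9 percentage points (10.7 to 13.2), and it was 17.4 points at 1 to 10 kb and 4.08 points at 50 to 200 kb. A Runx2 peak was counted once for each site in reach, so these are shares of pairs of a site and a peak. The interval treats the pairs as independent and is therefore too narrow.

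The other Jun peaks had nearly the same surroundings by this measure. The osteoblast share was 40.5% around Jun peaks with a GFP list and no Runx2 list. It was 41.1% around those with Runx2 of 3T3 cells but not of primary cells, and 40.4% around those with primary-cell Runx2. Jun-only sites were higher than these classes, in turn, on 13, 11 and 14 of 20 chromosomes. The share was 27.9% around chondrocyte Runx2 peaks in no other list, below that of Jun-only sites on 20 of 20 chromosomes. Around osteoblast Runx2 peaks in no other list it was 51.3%, counting other peaks of that same list, and Jun-only sites were higher on 1 of 20 chromosomes. The share around chondrocyte Runx2 peaks likewise counts other peaks of their own list. With each private Runx2 set counting its own list, a value between theirs says nothing particular to Jun-only sites.

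The density of Runx2 peaks around Jun-only sites fell with distance. At 0.5 to 1 kb, osteoblast-only Runx2 peaks were 6.06 times as dense as at 100 to 200 kb from the same sites (26.8 peaks per Mb, from 163 peaks). Chondrocyte-only peaks were 4.03 times as dense (29.6 per Mb, 180 peaks) and peaks of both primary cell types 4.34 times (15.0 per Mb, 91 peaks). Around Foxa2 peaks in no other list, the order was turned: 1.88 times for osteoblast-only, 3.84 times for chondrocyte-only and 2.86 times for both. The rise was not particular to Jun-only sites. Osteoblast-only peaks were 7.68 times as dense around Jun peaks with primary-cell Runx2 and 8.62 times around those with 3T3 Runx2 but no primary-cell Runx2. Around those with a GFP list and no Runx2 list the value was 8.16. Chondrocyte-only values for these classes were 5.00, 7.86 and 8.95, so the order was turned in the last. Relative to 100 to 200 kb, the lists named for GFP rose more around Jun-only sites. The ratio was 9.34 for the list named for GFP day 3 (109 peaks per Mb) and 11.1 for GFP day 0 (19.6 per Mb). Nearness to a Jun-only site was therefore not specific to Runx2 lists.

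**Figure D4:**
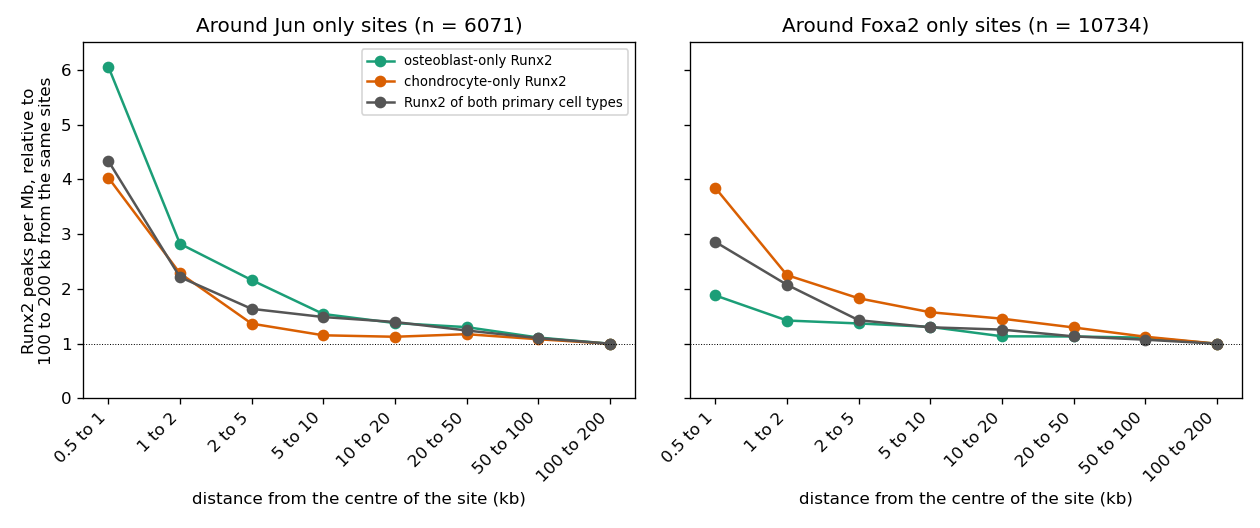
Runx2 peaks per Mb by distance from the centre of the site (kb), divided by their density at 100 to 200 kb, around the 6071 Jun-only sites (left) and the 10734 Foxa2 peaks in no other list (right). Osteoblast-only Runx2 is the highest line on the left at 0.5 to 1 kb, at 6.06, and the lowest on the right, at 1.88.

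Compared with the other Jun peaks, Jun-only sites had fewer peaks of most other lists nearby even outside the site. Between 1 and 50 kb the mean number of osteoblast Runx2 peaks was 1.07 around Jun-only sites and 1.35 around other Jun peaks, a ratio of 0.798. For chondrocyte Runx2 the means were 1.31 and 1.67, for 3T3 Runx2 day 3 they were 4.53 and 6.41, and for the list named for GFP day 3 they were 1.30 and 2.09. The ratio was lowest for GFP day 0, at 0.54, and it was below 1 on 20 of 20 chromosomes for these lists apart from GFP day 0, with 19. Foxa2 differed least, with means of 1.12 and 1.23, lower around Jun-only sites on 13 of 20 chromosomes. The rule acted on peaks of these same lists, so the values describe the surroundings of the chosen sites.

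Jun-only sites had fewer Jun peaks close by. Distances between Jun peaks did not enter the rule, but they are not independent of it. Over the 19 autosomes the Jun-only share fell with the number of Jun peaks per Mb (Spearman -0.74). The values below are therefore a description. Another Jun peak lay within 10 kb of 2601 Jun-only sites (42.8%) and of 4809 other Jun peaks (54.2%), against 49.6% of all Jun peaks. The difference was -11.4 percentage points (-13.0 to -9.77), lower for Jun-only sites on 20 of 20 chromosomes. It was -20.2 points when peaks up to 500 bp apart counted as overlapping, -7.44 points when neither GFP list was used and -6.61 points at a distance of 50 kb. At 500 bp the counts were 867 (14.3%) and 2424 (27.3%), against 22% of all Jun peaks, a difference of -13.1 points (-14.3 to -11.8). The median gap to the nearest Jun peak was 15838 bp for Jun-only sites and 6852.5 bp for other Jun peaks.

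Within 1 kb, another Jun peak lay near 20.7% of Jun-only sites and 35.4% of other Jun peaks. Beyond 1 kb the difference was small. At 1 to 50 kb, 67.4% of Jun-only sites and 69.4% of other Jun peaks had a Jun peak, with a mean of 1.89 and 2.08 Jun peaks, lower for Jun-only sites on 12 of 20 chromosomes. Among the Jun classes, the share with another Jun peak within 500 bp was 14.3% for Jun-only sites, 41.3% for Jun peaks with a GFP list and no Runx2 list, 29.2% for those with 3T3 Runx2, 22.3% for those with primary-cell Runx2 and 6.41% for the 78 with Foxa2 alone (5 peaks). By list name, the Jun peaks that met a GFP list and no Runx2 list were thus the most crowded and the widest. That class rests mostly on the list named for GFP day 3, the only list met by 930 Jun peaks, and so on its crossed label. At 500 bp the Jun-only sites were less crowded than every class but that with Foxa2 alone. Within 10 kb that exception was turned, with 42.8% for Jun-only sites and 50% (39.2 to 60.8%) for the 78 with Foxa2 alone. The interval of this small class spans the Jun-only value.

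Isolation from the other lists and from other Jun peaks went together within the Jun-only sites. Another Jun peak lay within 10 kb of 57.1% of the 871 sites within 100 bp of another list and of 62.9% of the 1008 sites at over 100 to 500 bp. It was 47.6% at over 500 bp to 10 kb, 21.4% at over 10 to 50 kb and 17.0% for the 547 sites over 50 kb away. Width hardly followed distance, with medians of 116 bp for the nearest sites and 124 to 128 bp for the other 4 bands. File position did not order the bands either: the share of sites in the first of the 10 parts of the file was 11.0%, 5.16%, 7.93%, 9.69% and 8.23% from the nearest to the farthest band.

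The sites farthest from any other list stood in peak-poor stretches of chromosomes 14, X and 6. The farthest, on chromosome 14 from 40005271 to 40005444, was 174 bp wide and lay 1599572 bp from the nearest peak of another list and 1774912 bp from the nearest Jun peak. On chromosome X, the site from 143864419 to 143864643 lay 1580310 bp from an osteoblast Runx2 peak, its nearest. The site on chromosome 6 from 19987867 to 19988012 lay 1188988 bp from the nearest other list. These sites stood at positions 10534, 5273 and 5270 of the file, away from both of its ends.

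Most Jun-only sites, 4536 of them, joined no other Jun-only site when these sites were chained at gaps of up to 10 kb. Other Jun peaks did not enter the chains. Counting every Jun peak, 2601 Jun-only sites had another one within 10 kb. The remaining Jun-only sites formed 669 groups of 2 or more, with 1535 sites (25.3%). Of the groups, 523 were pairs, 111 were triples and 35 held 4 or more. Counts for other Jun classes under the same chaining are not given, so these describe the Jun-only sites alone. Of these 35 groups, 21 had no other Jun peak inside and 6 had no peak of any other list inside. The largest group held 7 Jun-only sites among 12 Jun peaks on chromosome 12 from 86796282 to 86820897. That stretch of 24616 bp also held 2 osteoblast Runx2 peaks, 1 chondrocyte Runx2 peak, 4 Foxa2 peaks and 9 of 3T3 Runx2 day 3, and peaks of all 7 other lists stood among its Jun-only sites.

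The other large groups differed in company. On chromosome 7, the stretch from 19884695 to 19890475 held 6 Jun-only sites among 7 Jun peaks within 5781 bp, with 1 osteoblast Runx2 peak and no chondrocyte peak. On chromosome 1 from 45353196 to 45378133 stood 6 Jun-only sites among 7 Jun peaks, with 2 osteoblast Runx2 peaks and 1 chondrocyte Runx2 peak. That stretch also held 3 peaks of 3T3 Runx2 day 3 and 1 each of the lists named for 3T3 Runx2 day 0 and GFP day 3. On chromosome 11 from 109746305 to 109771437 all 6 Jun peaks were Jun-only, and a single chondrocyte Runx2 peak was the only one of any other list. On chromosome 7 from 149841584 to 149850199 all 5 Jun peaks were Jun-only, with 1 Foxa2 peak among them. In the group on chromosome 12 the sites ran from position 328 to 12476 of the file, and in that on chromosome 1 from 105 to 9117. The first group on chromosome 7 ran from 2654 to 14268 and that on chromosome 11 from 6553 to 13071. The last group lay entirely late, from 11142 to 14820.

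Over windows of 1 Mb, 1680 of the 1929 that held a Jun peak held a Jun-only site, and 73 held 10 or more. The highest counts were 19 of 28 Jun peaks in the window of chromosome 1 from 45000001 to 46000000 and 19 of 48 in that of chromosome 17 from 34000001 to 35000000. Windows of chromosomes 7, 12, 16 and 19 followed with 17 each, of 25, 37, 23 and 30 Jun peaks. Over all Jun peaks the Jun-only share was 40.6%. The window of chromosome 17 was thus full of Jun peaks but not rich in Jun-only ones. The window of chromosome 17 held 70 peaks of 3T3 Runx2 day 3 and 56 of the list named for GFP day 3, whereas that of chromosome 1 held 18 and 3. The window of chromosome 1 also contains the group of 6 given above.

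The share of Jun peaks that were Jun-only varied between chromosomes with the density of the other lists. It ranged from 31.5% on chromosome 11 (28.9 to 34.2%) to 49.0% on chromosome 13 (45.2 to 52.8%) among autosomes, and the intervals of these chromosomes do not meet. Chromosome 11 had 104 peaks of the other lists per Mb and chromosome 13 had 47.1. Over the 19 autosomes the share fell with that density (Spearman -0.85, Pearson -0.85). The chromosomes share the same libraries, and the density enters the rule, so the relation is a description. The shares in no other list of osteoblast and chondrocyte Runx2 followed the Jun-only share over the same autosomes (Spearman 0.86 and 0.88), and that of Foxa2 did so less closely (0.75).

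Chromosome X stood apart. Of its 122 Jun peaks, 80 were Jun-only (65.6%, 56.8 to 73.4%), against 40.4% on the autosomes (39.6 to 41.2%). It held 1.32% of the Jun-only sites and 0.474% of the other Jun peaks (0.817% of all Jun peaks), a difference of 0.844 percentage points (0.538 to 1.19). The X carried few peaks of any list, 0.761 Jun peaks per Mb against 4.47 to 9.98 on autosomes and 8.48 peaks per Mb of the other lists against 37.5 to 104. Foxa2 also had a higher share in no other list on the X, at 87.7%, whereas osteoblast Runx2 had 25.9% (85 peaks) and 3T3 Runx2 day 3 had 37.4%, both within their autosomal ranges. Chondrocyte Runx2 had 30.4% on the X, above its autosomal range of 16.8% to 27.9%. Among the Jun-only sites over 50 kb from any other list, 30 of 547 (5.48%) were on the X. The sex of the pups is not given, and its part in these values was not tested. Both Jun peaks of chromosome Y were Jun-only. All 46 peaks of the other lists on that chromosome were Foxa2 peaks, so no other list could remove a Jun peak there.

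**Figure D5:**
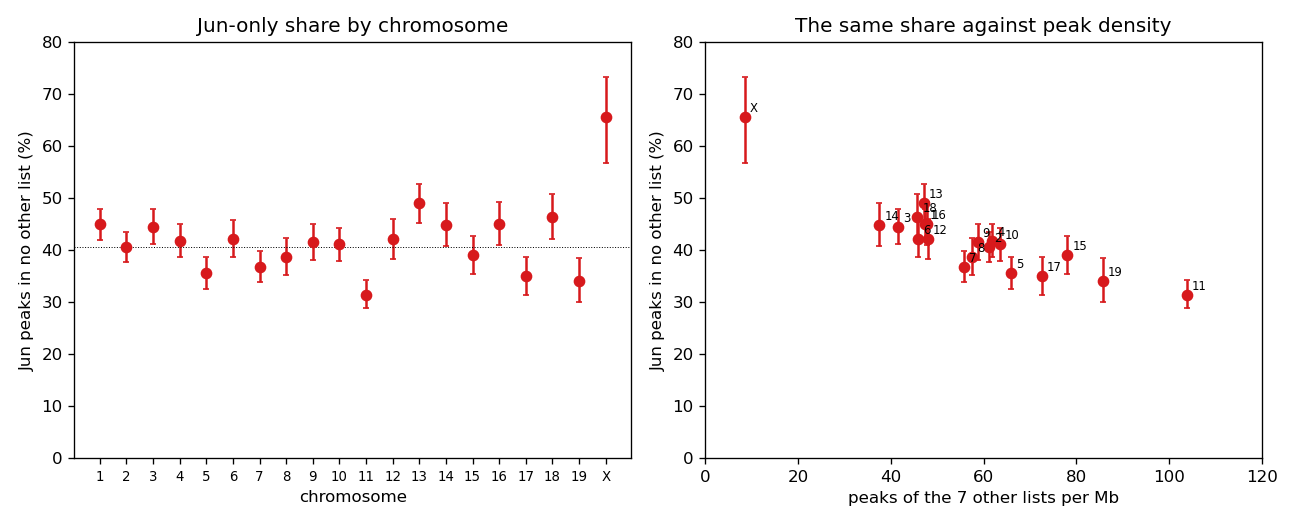
Percentage of Jun peaks found in no other list by chromosome (left, dotted line at 40.6%) and against the number of peaks of the 7 other lists per Mb (right); bars are 95% Wilson intervals. Chromosome X lies highest, at 65.6% with 8.48 peaks per Mb, and chromosome 11 lowest, at 31.5% with 104 peaks per Mb.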

How the data were processed

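Each of the 8 ChIP groups had 1 peak list that the authors deposited, with 3 columns (chromosome, start, end), and these positions in bases are the only measurement. Positions are in mm9, per the submitters' processing notes, which also name Bowtie and DiffBind without step or version. How peaks were called and at which threshold, which control served Jun, and whether Runx2 libraries were pooled is not given in the sources used here. The 23 ATAC libraries, the inputs and the IgG control were not analysed here.

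Coordinates are 1-based mm9. The gene tables at hand were GRCm38, and 48 Jun-only sites lay beyond the last gene of their chromosome there, 23 of them on chromosome 7. So no gene, promoter or sequence is given, and the planned counts of AP-1 motifs and promoter sites were not run. Distances are bases between peak edges, and classes, 10 equal parts of each file and chains were computed with Python 3.11.15, NumPy 2.4.6, pandas 2.3.3 and SciPy 1.17.1; figures used matplotlib 3.10.9. The number of Jun peaks overlapping each list was checked with bedtools 2.31.1 (0 of 7 lists differed), and the distance code was tested on simulated data, with 3000 of 3000 planted gaps recovered. No test over replicates was possible, since the Jun list rests on 1 library.

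Regions named are among the 5 widest, the 5 first in the file, the 5 farthest from and the 5 nearest to another list, the 5 other Jun peaks with the shortest overlap, the 5 largest groups and the 3 fullest windows of 1 Mb (4 windows tied for the third place). The sites, lists, tests and alternatives were chosen with earlier results of these data known. Alternatives changed the overlap rule, peak widths, the lists used, chromosomes, distances and file order.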

Additional observations from a re-analysis of the deposited data

How the results depend on the processing

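The Jun-only share of 40.6% changed with the rule. It was 48.5% when an overlap needed 50% of the shorter peak, 36.2% when centres within 250 bp counted, 34.8%, 28.1% and 25.5% when gaps of up to 100, 500 and 1000 bp counted, and 39.5% with all peaks set to 200 bp. Leaving a list out gave 42.6% (chondrocyte Runx2), 43.0% (osteoblast Runx2), 43.4% (3T3 Runx2 day 0), 45.7% (3T3 Runx2 day 3) and 46.9% (GFP day 3). It was 72.2% against the primary lists alone, 46.9% against the 3T3 lists alone, 47.9% with neither GFP list, 50.7% with neither crossed list and 35.6% in the wider 50% of Jun peaks. For 7 further settings, among them Foxa2 or GFP day 0 left out, crossed lists exchanged, X and Y left out and Jun peaks joined (a setting chosen after seeing the data), it moved by less than its interval.

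With the 50% rule, the 500 bp rule and no GFP lists in turn, the width difference was -12.5, -10 and -11 bp in place of -16. The difference in Jun neighbours within 10 kb was -8.76, -20.2 and -7.44 points, and -13.2 and -6.61 points at 5 and 50 kb. The share near another list was 73.6%, 54.5% and 70.0%, and 57.5% and 91.0% at 5 and 50 kb. The difference in the first 50% of the file was 2.29 points with the 500 bp rule and -4.86 points with neither GFP list, a change of sign. Groups numbered 1143 at gaps of up to 50 kb. The following were chosen after seeing the data: the rise from the first to the last of 10 parts of the file was 4.44 points with the 500 bp rule, 16.5 without GFP lists and 16.7 against primary lists, and the osteoblast excess over Foxa2 sites was 17.4, 10.4 and 4.08 points at 1 to 10, 10 to 50 and 50 to 200 kb. Beyond what each setting removes by construction, the cause was not tested.

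No paired analysis was possible because the Jun list rests on 1 library and no column carries a replicate number; likewise no replicate was left out. The motif and promoter settings were not run. Depth is unknown, and absence from a list does not show absence of the factor.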
